A study of Mus musculus with 2 samples.

Results

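Osteopontin and its receptors were followed as 8 genes in liver tumours of mice: Spp1, which encodes the secreted protein osteopontin, and Cd44, Itgav, Itgb1, Itgb3, Itgb5, Itga4 and Itga9, which encode the cell surface proteins that bind it. The genes were listed by name and matched by symbol, and all 8 were found among the 55450 genes of both libraries. The list names the ligand and its known receptors, and no measured value chose it.

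Tumours were started by injecting plasmids into the tail vein of C57BL/6 mice under pressure, in a volume of 10% of the body weight, which brings DNA into liver cells. In the AKT1.MYC group each mouse received 10 µg of an Akt1 plasmid and 10 µg of a human c-Myc plasmid with 5 µg of Sleeping Beauty transposase, an enzyme that inserts the oncogenes into the genome. In the NRAS.MYC.ND group each mouse received 19 µg of a human N-Ras plasmid and 1 µg of the human c-Myc plasmid with 2 µg of the transposase. Tumours of both groups were taken 14 weeks after injection, digested, enriched for live cells and run through a droplet assay that counts the 3′ ends of transcripts by unique molecular identifiers (UMIs). There was 1 library per group, so the oncogene, the plasmid amounts, the animal and the library cannot be told apart. The labels do not give the promoter of the plasmids, the number of mice per library, the species of Akt1 or the meaning of ND. They call the tissue hepatocellular carcinoma.

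The AKT1.MYC library held 10766 cell barcodes with 64516171 UMIs, and the NRAS.MYC.ND library 6312 barcodes with 42416125 UMIs. After filters and removal of likely doublets 9397 AKT1.MYC cells (median 1987 UMIs) and 5634 NRAS.MYC.ND cells (median 4240 UMIs) were kept. The 2 libraries shared 17 barcodes, and without those cells the Spp1 log2 ratios given below were 1.17 in epithelial cells and 4.82 in phagocytes. Cells were sorted into classes by marker genes read cell by cell, and 35.6% of AKT1.MYC cells and 9.85% of NRAS.MYC.ND cells passed no gate. Most clusters of cells came almost wholly from a single library. Levels are CPM, the UMIs of a gene per 1000000 UMIs of the class. A positive log2 ratio means a higher level in AKT1.MYC than in NRAS.MYC.ND. Parentheses give 95% intervals, which take in counting error alone, and no difference has a replicate check.

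Liver tumours of these models arise from epithelial cells. In AKT1.MYC 1531 of 1679 epithelial cells passed the gate for duct-like cells (Epcam, Krt7, Krt19, Sox9 and others) and 148 the gate for the hepatocyte lineage (Alb, Apoa1, Ttr and others). In NRAS.MYC.ND 74 of 363 were duct-like and 289 were of the hepatocyte lineage. Each of the 9 markers of either list stood at least 2-fold higher in the cells it gated than in the other gated cells, in both libraries. The labelled tissue is hepatocellular carcinoma, while most epithelial cells of AKT1.MYC carried duct-like markers. As a check of the labels, Nras stood at 82.5 CPM in the AKT1.MYC cells and 1661 CPM in the NRAS.MYC.ND cells of a shared hepatocyte-lineage cluster. The counts are of the mouse gene, and whether reads of the human plasmid fell on it was not tested. Akt1 did not separate the libraries, with up to 277 CPM in an AKT1.MYC cluster and up to 221 CPM in an NRAS.MYC.ND cluster.

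Osteopontin is an acidic, heavily phosphorylated protein that acts both as a matrix component and as a cytokine. In the healthy liver it is made mainly by the cells of the bile ducts, and it is well known from injured and cancerous liver, where macrophages and stellate cells can make it too. Integrins are pairs of an alpha and a beta chain. The pairs αvβ1, αvβ3 and αvβ5 bind the arginine-glycine-aspartate motif of osteopontin, whereas α4β1 and α9β1 bind the residues just after it, which thrombin cleavage exposes. CD44, a receptor for the sugar polymer hyaluronan, binds osteopontin through other parts of the protein.

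The stretch of the Spp1 coding sequence that holds both integrin sites is shown because 6 of the 8 genes encode chains that bind there. It was read from transcript Spp1-202 (exon 7 of 8, plus strand, GRCm38 chr5:104439463-104439525). It lies inside the gene (ENSMUSG00000029304, chromosome 5, 104435118 to 104441050). The capitals mark the 3 codons for arginine, glycine and aspartate, and the codons of the stretch bound by α4β1 and α9β1 start right after them.
Spp1: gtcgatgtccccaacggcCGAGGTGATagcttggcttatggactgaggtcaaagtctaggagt
The stretch of 63 bases is in 5 of the 7 coding transcripts of the gene. The assay reads 3′ ends, so the counts do not tell these transcripts apart. A gene of unknown function, Gm42793, overlaps Spp1 on the same strand and held 391 UMIs, against 1103178 for Spp1.

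Spp1 was higher in AKT1.MYC over the whole tumour sample, and its level lay mostly in epithelial cells. It took up 17033 CPM over all kept AKT1.MYC cells and 2007 CPM over all kept NRAS.MYC.ND cells, 8.49-fold more (8.43 to 8.55). The duct-like cells were the richest class of both libraries and nearly level, with 26028 CPM in AKT1.MYC and 22255.5 CPM in NRAS.MYC.ND (log2 ratio 0.23, 0.21 to 0.24). The hepatocyte lineage differed more, with 18172 CPM in AKT1.MYC and 8005 CPM in NRAS.MYC.ND (log2 ratio 1.18, 1.16 to 1.21), and this ratio was 2-fold or more under 9 of 10 alternatives. None of these alternatives took RNA set free by broken cells out of the epithelial classes. Over all epithelial cells the levels were 25782 CPM in AKT1.MYC and 11570 CPM in NRAS.MYC.ND (log2 ratio 1.16, 1.14 to 1.17). The epithelial ratio thus holds the mix of the 2 lineages as well as the level within each.

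**Figure D1:**
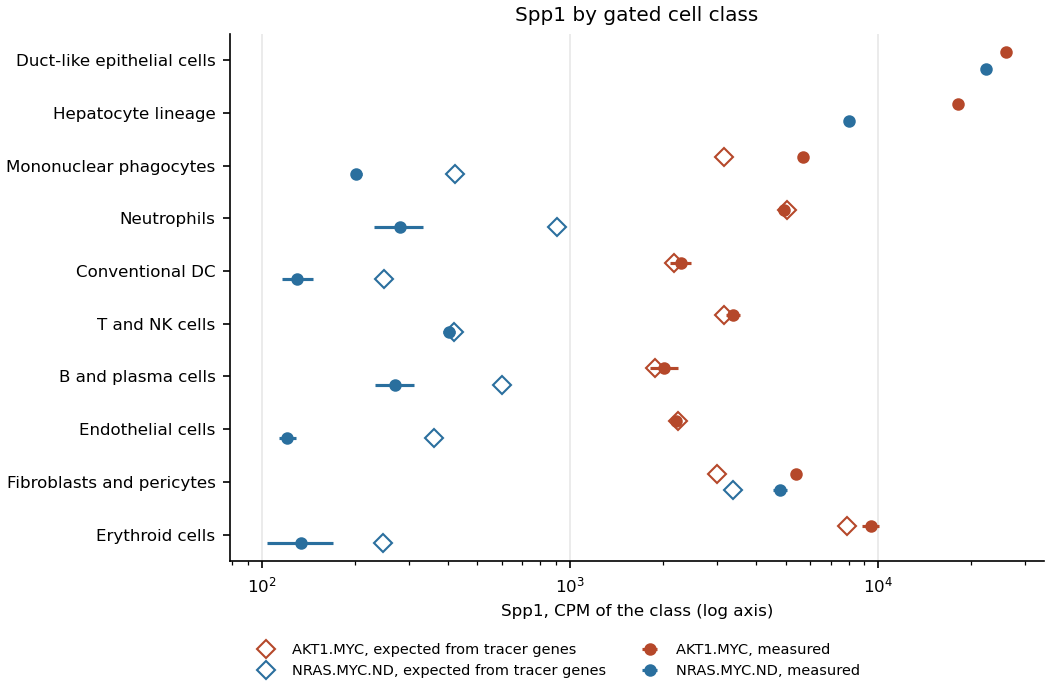
Spp1 level (CPM, log axis) in each cell class, with AKT1.MYC (red) above NRAS.MYC.ND (blue). Dots are measured levels with exact 95% Poisson intervals and open diamonds the levels that free epithelial RNA alone would give, from 18 tracer genes; duct-like cells stand at 26028 CPM in AKT1.MYC and 22255.5 CPM in NRAS.MYC.ND, and phagocytes at 5708 CPM in AKT1.MYC and 202 CPM in NRAS.MYC.ND.

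Cells of the hepatocyte lineage in NRAS.MYC.ND were of unlike kinds. No Spp1 UMI was seen in 92 of 289 of them (31.8%), beside 37.9% of NRAS.MYC.ND phagocytes, while all 74 duct-like cells of that library held at least 1. In AKT1.MYC all 148 cells of the lineage held one, but so did all 105 T and NK cells, and nothing is read from that share. When every cell was thinned to 1000 UMIs, the hepatocyte lineage had a median of 8 Spp1 UMIs in AKT1.MYC, against 0 in NRAS.MYC.ND, yet the highest cell reached 107 UMIs in AKT1.MYC, and 83 UMIs in NRAS.MYC.ND. Duct-like cells had medians of 23 UMIs in AKT1.MYC and 25 UMIs in NRAS.MYC.ND, with highest cells of 181 UMIs in AKT1.MYC and 82 UMIs in NRAS.MYC.ND. After thinning, 36 of 110 hepatocyte-lineage cells of AKT1.MYC (32.7%) held more Spp1 UMIs than the 99th percentile of endothelial cells. In NRAS.MYC.ND it was 70 of 262 (26.7%). Among duct-like cells it was 1065 of 1506 in AKT1.MYC (70.7%) and 69 of 74 in NRAS.MYC.ND (93.2%). By this measure a minority of the hepatocyte lineage stood above the endothelial level in both libraries, whereas most duct-like cells did. Hepatocyte-lineage cells of AKT1.MYC were shallow, with a median of 2140 UMIs against 6637 in NRAS.MYC.ND, and 5 cells held 45.0% of their Spp1 UMIs, against 24.2% in NRAS.MYC.ND.

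The clusters described the same split, as a description only, since Spp1 was among the clustered genes. In NRAS.MYC.ND, 248 cells of a hepatocyte-lineage cluster had 11278 CPM of Spp1, and 125 cells of another had 135 CPM. Both held Alb, the main hepatocyte product, at 17347 and 15989 CPM, and both held Nras, at 1661 and 1306 CPM, with at most 145 CPM in every other NRAS.MYC.ND cluster of at least 50 cells. Cd44 differed the same way between these clusters, 89.6 and 19.1 CPM, and so did Itgav, 45.1 and 3.18 CPM. The Spp1-poor cells were shallower, with a median of 2385 UMIs per cell against 14977.5 in the Spp1-rich cells. The part of depth in this split was not tested.

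Spp1 also stood lower in cycling hepatocyte-lineage cells, those with UMIs of at least 2 of 8 proliferation genes such as Mki67 and Top2a. In AKT1.MYC, 24 cycling cells had 8070 CPM (7761 to 8388) and 124 other cells 23059 CPM (22694 to 23429). In NRAS.MYC.ND, 49 cycling cells had 2284 CPM (2177 to 2396) and 240 others 9477 CPM (9365 to 9590). After thinning, 3 of 22 cycling cells (13.6%) and 33 of 88 other cells (37.5%) of AKT1.MYC held more Spp1 UMIs than the 99th percentile of endothelial cells. In NRAS.MYC.ND it was 2 of 47 (4.26%) and 68 of 215 (31.6%). Among duct-like cells the gap in level was smaller, 23093 CPM in 424 cycling and 28347 CPM in 1107 other cells of AKT1.MYC. The duct-like cells of NRAS.MYC.ND had 19969 CPM in 7 cycling and 22858 CPM in 67 other cells, and thinned medians in AKT1.MYC were 23 and 24 UMIs. Cycling cells were deeper than the others in each of these pairs, and a deeper cell shows a proliferation gene more readily.

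**Figure D2:**
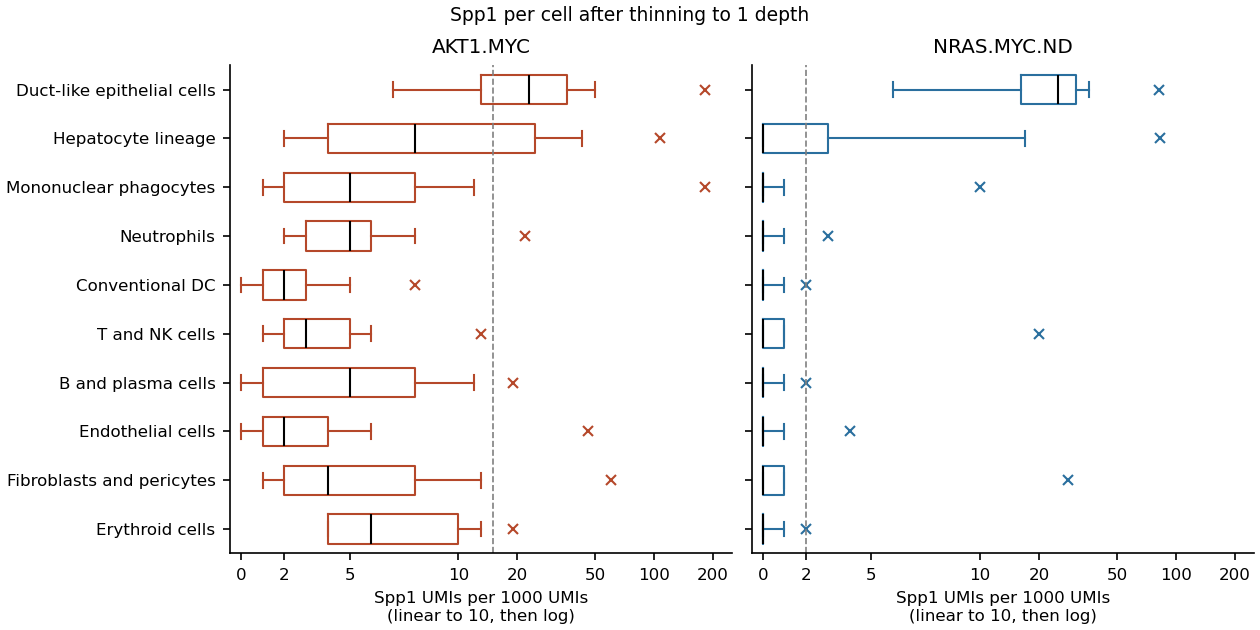
Spp1 UMIs per cell after thinning each cell to 1000 UMIs, by class, with AKT1.MYC left of NRAS.MYC.ND (axis linear to 10, then log). Boxes are quartiles, whiskers the 10th and 90th percentiles, crosses the highest cell and dashed lines the 99th percentile of endothelial cells (15 UMIs in AKT1.MYC and 2 UMIs in NRAS.MYC.ND); duct-like medians are 23 and 25.

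Outside the epithelium, Spp1 UMIs were found in nearly every AKT1.MYC cell of any class. Endothelial cells, which line vessels and are not a known main source of osteopontin, had 2212 CPM in AKT1.MYC and 121 CPM in NRAS.MYC.ND (log2 ratio 4.19, 4.10 to 4.29). T and NK cells had 3375 CPM in AKT1.MYC and 403 CPM in NRAS.MYC.ND (log2 ratio 3.06), and neutrophils 4931 CPM in AKT1.MYC and 279.5 CPM in NRAS.MYC.ND (log2 ratio 4.14). Red blood cell precursors and red cells, gated by haemoglobin, had 9447 CPM in AKT1.MYC and 134 CPM in NRAS.MYC.ND (log2 ratio 6.14). Droplets also capture RNA set free by broken cells, so a level in these classes needs a measure of free RNA beside it.

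Free epithelial RNA was traced with 18 genes that epithelial cells make, such as Krt8, Krt18, Cldn3, Apoh and Fga. If all Spp1 in a class came with free RNA, Spp1 and the tracers would stand there in the ratio they have in the epithelial cells of the same library. In AKT1.MYC endothelial cells the measured Spp1 level was 0.992 times the level so expected (0.961 to 1.02). It was 0.975 times (0.930 to 1.02) in neutrophils, 1.07 times (0.994 to 1.15) in T and NK cells, 1.05 times (0.946 to 1.16) in conventional dendritic cells and 1.07 times (0.934 to 1.23) in B and plasma cells. With all tracers, the Spp1 level of these 5 classes in AKT1.MYC could not be told from the one that free epithelial RNA would give within counting error. With the duct-like tracers alone the endothelial cells stood at 1.04 times (1.004 to 1.07), T and NK cells at 1.13 times (1.04 to 1.21), neutrophils at 1.15 times (1.10 to 1.21) and conventional dendritic cells at 1.15 times (1.03 to 1.28), all with intervals above 1. Erythroid cells stood at 1.19 times (1.09 to 1.30), with a median of 777 UMIs per cell. The tracers put the share of free epithelial RNA at 8.65% of endothelial UMIs in AKT1.MYC, against 3.12% in NRAS.MYC.ND, and at 30.8% of erythroid UMIs in AKT1.MYC.

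Mononuclear phagocytes, the monocytes and macrophages, had 5708 CPM of Spp1 in AKT1.MYC and 202 CPM in NRAS.MYC.ND (log2 ratio 4.82, 4.76 to 4.88), from 2690 AKT1.MYC and 1460 NRAS.MYC.ND cells. Free RNA alone would have given 3160 CPM in AKT1.MYC and 423 CPM in NRAS.MYC.ND. The measured level was therefore 1.81 times (1.79 to 1.83) the expected level in AKT1.MYC and 0.478 times (0.458 to 0.499) in NRAS.MYC.ND. With all tracers, an excess over free RNA was seen in the AKT1.MYC phagocytes, and none was seen in those of NRAS.MYC.ND. However, every NRAS.MYC.ND class of at least 50 cells outside the epithelium measured below its expected level. Endothelial cells there had 121 CPM against 361 CPM expected, and neutrophils 279.5 CPM against 905 CPM. A value below 1 in that library thus cannot show that its phagocytes made no Spp1. Fibroblasts and pericytes of AKT1.MYC, the matrix-forming cells, showed the same excess of 1.81 times (1.77 to 1.84), so it was not particular to phagocytes.

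The size of this excess depends on the tracers. With the duct-like tracers alone it was 2.17 times in AKT1.MYC and 1.27 times in NRAS.MYC.ND phagocytes. With the hepatocyte tracers alone it was 0.676 times in AKT1.MYC and 0.324 times in NRAS.MYC.ND. The hepatocyte tracers hold Trf and Hp, which encode the iron carrier transferrin and the haemoglobin binder haptoglobin. Trf stood at 637 CPM in AKT1.MYC phagocytes against 119 CPM in endothelial cells of that library, and Hp at 931 CPM in AKT1.MYC neutrophils against 673 CPM in epithelial cells. Without these 2 genes the hepatocyte tracers gave 1.72 times in AKT1.MYC and 0.613 times in NRAS.MYC.ND phagocytes, and all tracers 2.14 times in AKT1.MYC and 0.917 times in NRAS.MYC.ND. Without them, all tracers put AKT1.MYC neutrophils at 1.14 times (1.08 to 1.19), T and NK cells at 1.10 times (1.02 to 1.18) and endothelial cells at 1.03 times (0.994 to 1.06). In AKT1.MYC phagocytes the excess was above 1 with 4 of the 5 tracer sets, and in NRAS.MYC.ND phagocytes with 1 of the 5.

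**Figure D3:**
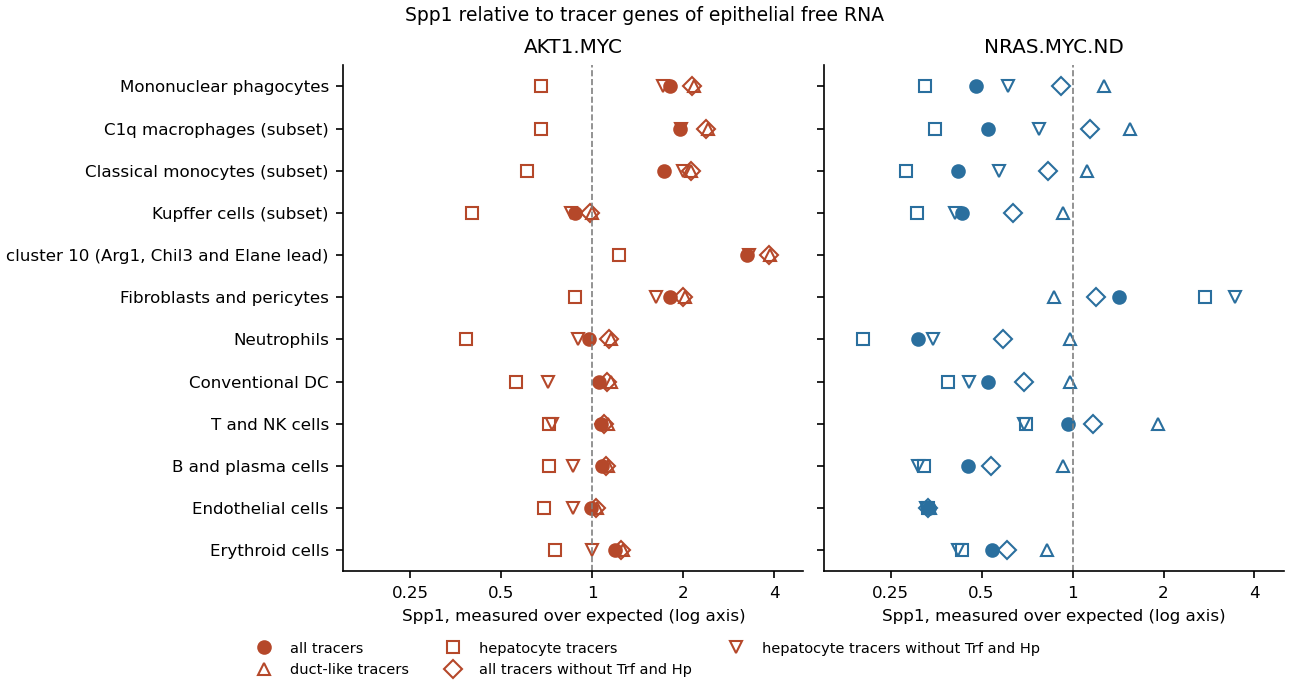
Measured Spp1 level divided by the level expected from free epithelial RNA, by class and for 5 sets of tracer genes, with AKT1.MYC left of NRAS.MYC.ND. A value of 1 is what free RNA alone would give if Spp1 and the tracers kept their epithelial ratio. With all tracers AKT1.MYC phagocytes stand at 1.81 and AKT1.MYC endothelial cells at 0.992.

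The excess differed between groups of phagocytes. A cluster of 585 AKT1.MYC cells, led by Arg1, Chil3 and Elane (arginase, a chitinase-like protein and neutrophil elastase), had 8789 CPM of Spp1, 3.24 times the level expected from free RNA. Myeloid genes of more than 1 lineage lead this cluster, and it was left unnamed. Without it, the excess of AKT1.MYC phagocytes was 1.33 times. Spp1 was among the clustered genes, so the values with and without this cluster are a description only. After thinning to 1000 UMIs, 76 of 559 cells of the cluster (13.6%, 10.9 to 16.7) held more than 15 Spp1 UMIs, the 99th percentile of AKT1.MYC endothelial cells. The same held for 128 of 2468 AKT1.MYC phagocytes (5.19%, 4.34 to 6.14), and the highest reached 183 UMIs. The corresponding share in NRAS.MYC.ND phagocytes, above 2 UMIs, was 15 of 1398 (1.07%, 0.602 to 1.76).

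The phagocyte subsets of AKT1.MYC differed. Macrophages with complement C1q genes had 5394 CPM of Spp1, 1.96 times the expected level (1.93 to 1.99), and classical monocytes, marked by Ly6c2 and Ccr2, had 4981 CPM, 1.73 times (1.67 to 1.80). Kupffer cells, the resident macrophages of the liver sinusoids, had 5336 CPM, which was 0.877 times the expected level (0.779 to 0.988). The 54 Kupffer cells thus had a level like that of the other gated subsets, but below the one expected from free RNA. The 1052 AKT1.MYC phagocytes with no subset gate had 7413 CPM, more than each of these subsets. In NRAS.MYC.ND 537 such cells had 165 CPM. In NRAS.MYC.ND the C1q macrophages had 233 CPM, the classical monocytes 208 CPM and the Kupffer cells 185 CPM, at 0.525, 0.416 and 0.431 times the expected level.

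T cells of NRAS.MYC.ND stood apart from the other lymphoid cells of that library. They had 411 CPM of Spp1, 0.986 times (0.939 to 1.04) the expected level. In this library the expected level stood above the measured one in endothelial cells as well, 361 CPM against 121 CPM. A T cell level near the expected one therefore does not show that all of it came with free RNA, and this was not tested. NK cells and type 1 innate lymphoid cells had 197.5 CPM, 0.417 times, and B and plasma cells 270 CPM, 0.450 times. After thinning, 23 of 1386 T cells (1.66%, 1.06 to 2.48) held more than 2 Spp1 UMIs, and the highest held 20. None of 318 B and plasma cells did, which allows a share of up to 0.943% by the limit of 3 counts and up to 1.15% by the exact interval, and the exact bound lies within the interval of the T cells. The 5 richest T cells held 20.4% of the T cell Spp1 UMIs, and whether these droplets held a second cell was not tested.

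Fibroblasts and pericytes had 5414 CPM in AKT1.MYC and 4806 CPM in NRAS.MYC.ND, where the class has 39 cells. In NRAS.MYC.ND 5 of these cells held 97.8% of the Spp1 UMIs of the class, so its level describes those cells. The 19 gated as fibroblasts proper had 195.5 CPM and the 20 stellate cells and pericytes, the vitamin A-storing and vessel-wrapping cells, 7149 CPM. In AKT1.MYC fibroblasts proper had 5061 CPM, 1.85 times the expected level, and stellate cells and pericytes 8028 CPM, 1.63 times.

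Cd44 was highest in neutrophils of both libraries, with 486 CPM in AKT1.MYC and 706 CPM in NRAS.MYC.ND (log2 ratio -0.54, -0.78 to -0.30). Mononuclear phagocytes came next with 220 CPM in AKT1.MYC and 246 CPM in NRAS.MYC.ND (log2 ratio -0.16, -0.24 to -0.09), and duct-like cells after them with 168 CPM in AKT1.MYC and 186 CPM in NRAS.MYC.ND (log2 ratio -0.14, -0.34 to 0.06). The order of these 3 classes was the same in both libraries, with intervals that did not overlap in either. Plasmacytoid dendritic cells, of which only NRAS.MYC.ND held any (49 cells), had 464 CPM. Endothelial cells had the least in AKT1.MYC, 21.1 CPM, against 8.83 CPM in NRAS.MYC.ND, where erythroid cells at 6.00 CPM overlapped them.

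The largest Cd44 difference among well-counted classes lay in the hepatocyte lineage. It had 160 CPM in AKT1.MYC and 46.3 CPM in NRAS.MYC.ND (log2 ratio 1.79, 1.46 to 2.11), and in AKT1.MYC its interval overlapped that of duct-like cells. Over all epithelial cells the levels were 168 CPM in AKT1.MYC and 81.2 CPM in NRAS.MYC.ND (log2 ratio 1.05, 0.90 to 1.20), a 2-fold difference in 7 of 10 alternatives. Duct-like cells held 5086 of the 5242 epithelial Cd44 UMIs in AKT1.MYC and 225 of 393 in NRAS.MYC.ND. This ratio thus also holds the mix of the 2 lineages. Within phagocytes, classical monocytes held 474 CPM in AKT1.MYC and 338 CPM in NRAS.MYC.ND (log2 ratio 0.49, 0.30 to 0.67) and C1q macrophages 179 CPM in AKT1.MYC and 142 CPM in NRAS.MYC.ND (log2 ratio 0.34, 0.22 to 0.46). Both subsets were higher in AKT1.MYC although the class as a whole was lower. Phagocytes with no subset gate had 252 CPM in AKT1.MYC and 328 CPM in NRAS.MYC.ND (log2 ratio -0.38, -0.52 to -0.24). In endothelial cells the log2 ratio of 1.25 (0.74 to 1.76) stood beside 14.5 CPM expected from free epithelial RNA in AKT1.MYC and 2.54 CPM in NRAS.MYC.ND, and it ranged from 0.05 to 2.30 over 11 alternatives.

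**Figure D4:**
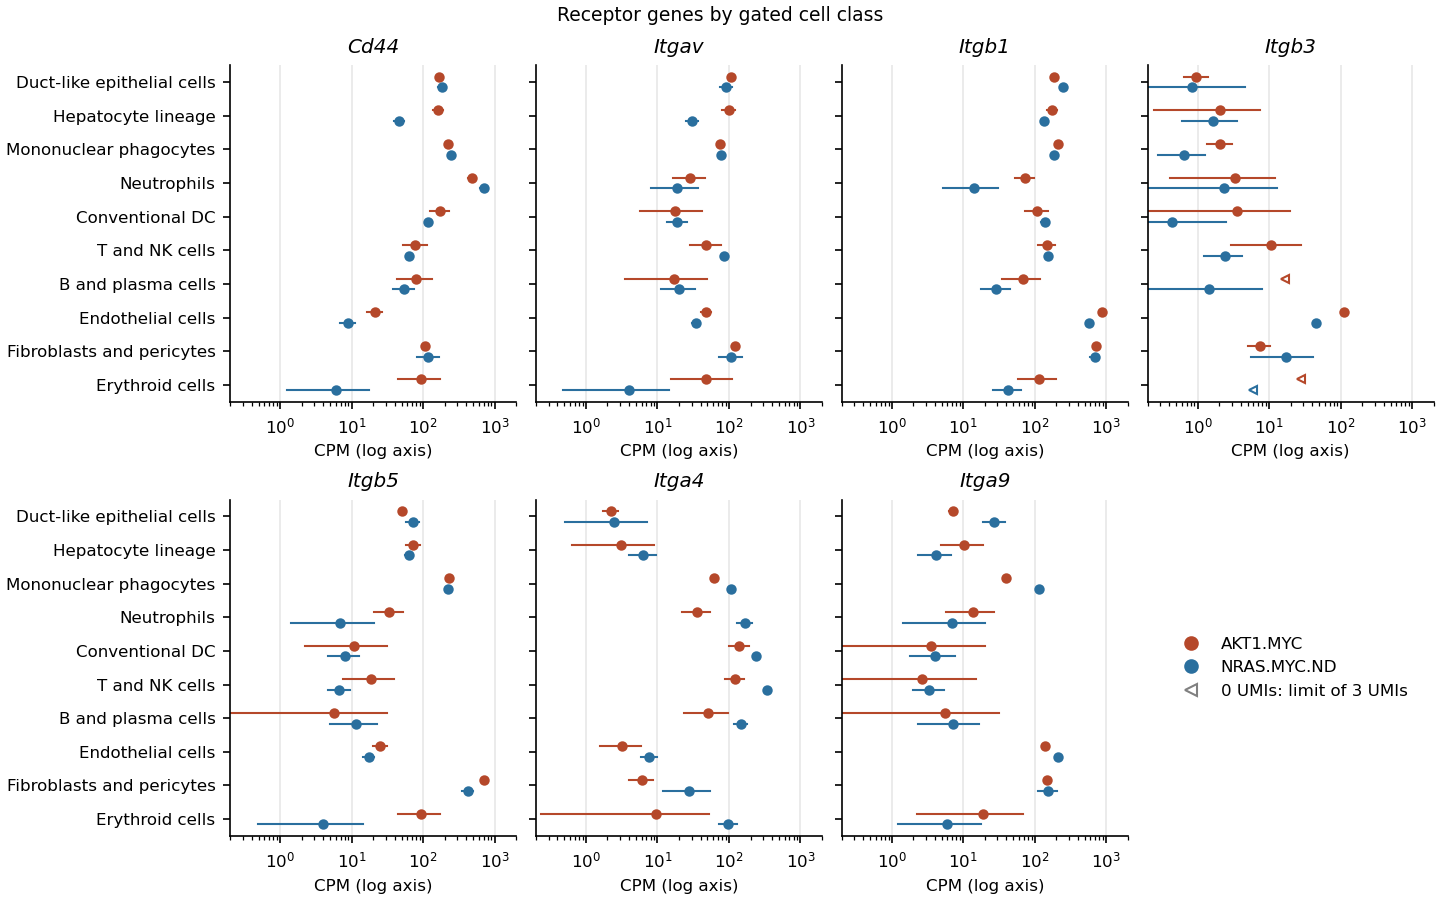
Levels (CPM, log axis) of the 7 receptor genes in each cell class, with AKT1.MYC (red) above NRAS.MYC.ND (blue) and exact 95% Poisson intervals. Triangles mark the limit that 3 UMIs set where none was seen; Itgb3 stands at 113 CPM in AKT1.MYC and 45.3 CPM in NRAS.MYC.ND in endothelial cells.

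Itgav encodes the αv chain, which all the arginine-glycine-aspartate receptors of the list share. It was spread over many classes. Epithelial cells had 105 CPM in AKT1.MYC and 45.5 CPM in NRAS.MYC.ND (log2 ratio 1.21, 1.01 to 1.41). Duct-like cells held 3182 of the 3279 epithelial Itgav UMIs in AKT1.MYC and 110 of 220 in NRAS.MYC.ND. The epithelial ratio thus also holds the mix of the 2 lineages. Of these lineages, as with Cd44, only the hepatocyte lineage differed by 2-fold or more, with 99.2 CPM in AKT1.MYC and 30.3 CPM in NRAS.MYC.ND (log2 ratio 1.71, 1.30 to 2.12). Duct-like cells had 105 CPM in AKT1.MYC and 90.9 CPM in NRAS.MYC.ND (log2 ratio 0.21, -0.06 to 0.50), an interval that includes no difference. Phagocytes had 75.1 CPM in AKT1.MYC and 77.6 CPM in NRAS.MYC.ND (log2 ratio -0.05, -0.18 to 0.08). T and NK cells were lower in AKT1.MYC, 48.2 CPM against 84.05 CPM in NRAS.MYC.ND (log2 ratio -0.80, -1.57 to -0.12), from 18 UMIs in AKT1.MYC. The highest class was fibroblasts and pericytes in AKT1.MYC (120.5 CPM) and duct-like cells in NRAS.MYC.ND, among classes of at least 50 cells. In NRAS.MYC.ND the intervals of duct-like cells and of T and NK cells overlapped.

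Itgb1 encodes the β1 chain, the most widely shared partner, which pairs with αv, α4 and α9. Endothelial cells had the highest level among classes of at least 50 cells, 867 CPM in AKT1.MYC and 576 CPM in NRAS.MYC.ND (log2 ratio 0.59, 0.52 to 0.66). Fibroblasts and pericytes had 710 CPM in AKT1.MYC and 687 CPM in the 39 cells of NRAS.MYC.ND. Duct-like cells were lower in AKT1.MYC, 186 CPM against 250 CPM in NRAS.MYC.ND (log2 ratio -0.43, -0.60 to -0.26), and phagocytes slightly higher, 213 CPM in AKT1.MYC and 187 CPM in NRAS.MYC.ND (log2 ratio 0.18, 0.10 to 0.26). Neutrophils had the least of the ranked classes, 72.2 CPM from 43 UMIs in AKT1.MYC and 14.0 CPM from 6 UMIs in NRAS.MYC.ND (log2 ratio 2.37, 1.13 to 3.89). Free epithelial RNA alone would give neutrophils 36.4 CPM in AKT1.MYC and 12.8 CPM in NRAS.MYC.ND.

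Itgb3, the β3 chain of the classical vitronectin receptor, was close to an endothelial gene in these tumours. Endothelial cells had 113 CPM in AKT1.MYC and 45.3 CPM in NRAS.MYC.ND (log2 ratio 1.32, 1.10 to 1.53), while no other class of at least 50 cells passed 10.7 CPM in AKT1.MYC or 2.37 CPM in NRAS.MYC.ND. Sinusoidal endothelial cells, which line the liver's own capillaries, had 165 CPM in AKT1.MYC and 68.4 CPM in NRAS.MYC.ND (log2 ratio 1.27, 0.92 to 1.61). Vascular endothelial cells had 95.4 CPM in AKT1.MYC and 15.1 CPM in NRAS.MYC.ND (log2 ratio 2.66, 2.18 to 3.17). The endothelial ratio was 2-fold or more under all 11 alternatives that gave one, from 1.23 to 1.70 on the log2 scale. Thinned to 1000 UMIs, 10.9% of AKT1.MYC and 3.61% of NRAS.MYC.ND endothelial cells held an Itgb3 UMI, and without thinning 42.2% of AKT1.MYC and 26.3% of NRAS.MYC.ND cells did. Megakaryocytes and platelets, which carry β3 with another alpha chain, were 9 cells in NRAS.MYC.ND, with 5 Itgb3 UMIs (226 CPM). In phagocytes the gene was near the limit of detection, 27 UMIs in AKT1.MYC and 8 UMIs in NRAS.MYC.ND.

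Itgb5, the β5 chain, marked matrix-forming cells and phagocytes. Fibroblasts and pericytes had 712 CPM in AKT1.MYC and 423 CPM in NRAS.MYC.ND, and phagocytes 227 CPM in AKT1.MYC and 219 CPM in NRAS.MYC.ND (log2 ratio 0.05, -0.03 to 0.13). The phagocyte level differed by no more than 1.09-fold in either direction within counting error. Duct-like cells had 50.6 CPM in AKT1.MYC and 71.9 CPM in NRAS.MYC.ND (log2 ratio -0.51, -0.82 to -0.18) and the hepatocyte lineage 72.6 CPM in AKT1.MYC and 63.1 CPM in NRAS.MYC.ND (log2 ratio 0.20, -0.20 to 0.59). Values in lymphocytes and neutrophils rested on few UMIs, with 20 in AKT1.MYC neutrophils and 3 in NRAS.MYC.ND neutrophils. T and NK cells held 7 UMIs in AKT1.MYC and 34 UMIs in NRAS.MYC.ND.

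Itga4 encodes the α4 chain, which leukocytes use with β1 to leave the blood. Its highest levels were in leukocytes in both libraries, though erythroid cells of NRAS.MYC.ND overlapped phagocytes within counting error. It was lower in AKT1.MYC in each leukocyte class that could be compared. T and NK cells had 121 CPM in AKT1.MYC and 340 CPM in NRAS.MYC.ND (log2 ratio -1.50, -1.96 to -1.07). Neutrophils had 35.3 CPM in AKT1.MYC and 168 CPM in NRAS.MYC.ND (log2 ratio -2.25, -3.02 to -1.53), and phagocytes 62.1 CPM in AKT1.MYC and 106 CPM in NRAS.MYC.ND (log2 ratio -0.78, -0.91 to -0.65). Nearly all AKT1.MYC neutrophils lay in a cluster led by G0s2, Il1r2 and Cxcl2. All those of NRAS.MYC.ND lay in another, led by Ngp, Camp and S100a9. Whether the neutrophil ratios of Itga4, Cd44, Itgb1 and the other genes compare like cells was not tested. The log2 ratio ranged from -1.56 to -1.10 in T and NK cells over 11 alternatives, and each of them left it below -1 in neutrophils as well. Of smaller classes, the 49 plasmacytoid dendritic cells of NRAS.MYC.ND had 403 CPM. Thinned shares of cells with an Itga4 UMI went the same way, with 13.1% of AKT1.MYC and 28.7% of NRAS.MYC.ND T and NK cells, and 2.42% of AKT1.MYC and 16.1% of NRAS.MYC.ND neutrophils. Without thinning they were 30.5% of AKT1.MYC and 59.2% of NRAS.MYC.ND T and NK cells, and 6.05% of AKT1.MYC and 26.5% of NRAS.MYC.ND neutrophils.

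Among phagocytes, classical monocytes had the most Itga4, 114 CPM in AKT1.MYC and 245 CPM in NRAS.MYC.ND (log2 ratio -1.11, -1.41 to -0.81), and C1q macrophages less, 54.4 CPM in AKT1.MYC and 79.3 CPM in NRAS.MYC.ND (log2 ratio -0.54, -0.73 to -0.36). Kupffer cells were the exception, 95.3 CPM from 8 UMIs in AKT1.MYC and 55.1 CPM from 28 UMIs in NRAS.MYC.ND (log2 ratio 0.79, -0.55 to 1.96), with an interval that includes no difference. Epithelial cells held little, 2.27 CPM in AKT1.MYC and 5.37 CPM in NRAS.MYC.ND (log2 ratio -1.24), and this ratio turned to 0.32 when cells were thinned to equal depth. Erythroid cells had 1 Itga4 UMI in AKT1.MYC (9.40 CPM) and 49 in NRAS.MYC.ND (98.0 CPM), a log2 ratio of -3.38 (-8.71 to -0.84).

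Itga9 encodes the α9 chain. Endothelial cells had 141 CPM in AKT1.MYC and 212 CPM in NRAS.MYC.ND (log2 ratio -0.59, -0.75 to -0.44). Fibroblasts and pericytes of AKT1.MYC had 149 CPM, with an interval that overlapped that of the endothelial cells. The 2 endothelial subsets went opposite ways: sinusoidal cells were lower in AKT1.MYC, 188 CPM against 309 CPM in NRAS.MYC.ND (log2 ratio -0.72, -1.01 to -0.44), and vascular cells higher, 133 CPM in AKT1.MYC and 86.9 CPM in NRAS.MYC.ND (log2 ratio 0.62, 0.35 to 0.88). Phagocytes were lower in AKT1.MYC, 40.1 CPM against 116 CPM in NRAS.MYC.ND (log2 ratio -1.53, -1.68 to -1.38), and so were C1q macrophages, 39.3 CPM in AKT1.MYC and 93.7 CPM in NRAS.MYC.ND (log2 ratio -1.25). Kupffer cells had the most Itga9 of the phagocytes, 298 CPM in AKT1.MYC and 210.5 CPM in NRAS.MYC.ND (log2 ratio 0.50, -0.19 to 1.14), an interval that includes no difference. Duct-like cells had 7.24 CPM from 219 UMIs in AKT1.MYC and 27.3 CPM from 33 UMIs in NRAS.MYC.ND (log2 ratio -1.91, -2.44 to -1.34), and thinning to equal depth left no Itga9 UMI in the 74 NRAS.MYC.ND cells.

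Chains can only pair where both are made. At 1000 UMIs per cell, a UMI of Itga9 and of Itgb1 was seen in the same cell in 5.87% of AKT1.MYC and 7.97% of NRAS.MYC.ND endothelial cells. Itga4 and Itgb1 were seen together in 3.03% of AKT1.MYC and 4.02% of NRAS.MYC.ND T and NK cells. Itgav and Itgb5 were found in the same cell in 1.78% of AKT1.MYC and 1.43% of NRAS.MYC.ND phagocytes. The intervals of these 3 shares overlapped between the libraries, and at this depth most double-positive cells are missed. In fibroblasts and pericytes of AKT1.MYC, Itga9 and Itgb1 were seen together in 6.39% of cells and Itgav and Itgb5 in 5.25%. This class had too few cells in NRAS.MYC.ND for a share. Other shares had intervals that did not overlap between the libraries. Itga4 and Itgb1 were seen together in 1.09% of AKT1.MYC phagocytes (0.722 to 1.59), against 2.58% in NRAS.MYC.ND (1.81 to 3.55). Cd44 and Itgb1 were seen together in 3.34% of AKT1.MYC epithelial cells (2.52 to 4.34), against 0.595% in NRAS.MYC.ND (0.0722 to 2.13). In duct-like cells alone the intervals overlapped, 3.45% (2.59 to 4.50) in AKT1.MYC and 2.70% (0.329 to 9.42) in NRAS.MYC.ND. The pair was seen in 1.96% of AKT1.MYC endothelial cells (0.790 to 3.99), against 0.125% in NRAS.MYC.ND (0.00315 to 0.692). Free epithelial RNA alone would give these cells 14.5 of their 21.1 CPM of Cd44 in AKT1.MYC and 2.54 of 8.83 CPM in NRAS.MYC.ND. Itgav and Cd44 shared 1.92% of AKT1.MYC epithelial cells (1.31 to 2.71), against none in NRAS.MYC.ND (exact bound 1.09%). In duct-like cells alone these intervals overlapped too, with 1.99% in AKT1.MYC (1.35 to 2.83) and none in NRAS.MYC.ND (exact bound 4.86%). Without thinning, Itgav and Itgb1 were seen together in 60.2% of AKT1.MYC and 54.1% of NRAS.MYC.ND duct-like cells, at medians of 15381 UMIs per AKT1.MYC cell and 11978 UMIs per NRAS.MYC.ND cell. Itgav and Itgb3 were seen together in 16.6% of AKT1.MYC and 9.17% of NRAS.MYC.ND endothelial cells, at medians of 6482 UMIs per AKT1.MYC cell and 7062 UMIs per NRAS.MYC.ND cell. Itgav and Itgb3 were then seen together in at most 2.91% of the cells of any other class of at least 50 cells.

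**Figure D5:**
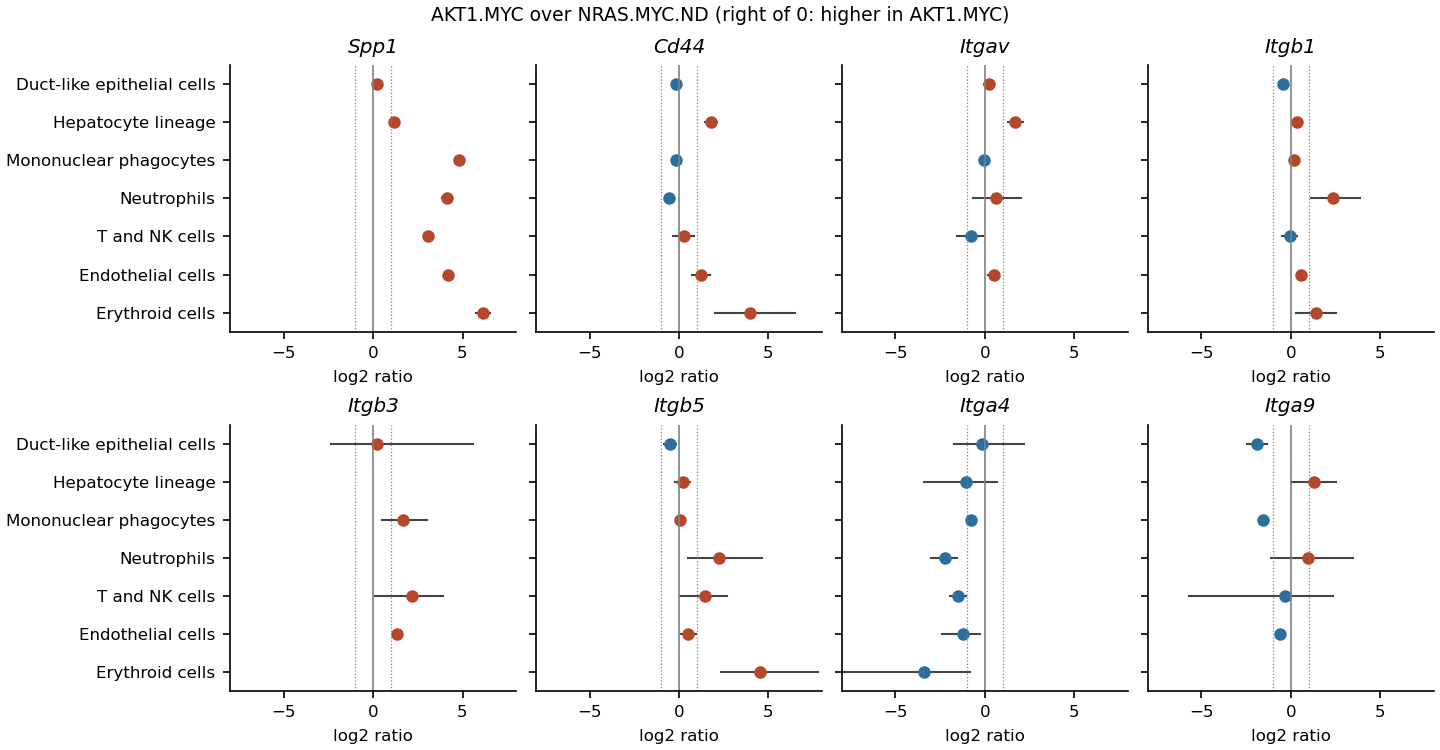
Log2 ratio AKT1.MYC over NRAS.MYC.ND of each of the 8 genes in 7 cell classes, with exact 95% intervals, where at least 10 UMIs were counted over both libraries. Red points are higher in AKT1.MYC, blue points lower, and dotted lines mark 2-fold; Spp1 stands at 4.82 in phagocytes, and Itga4 is below -1 in neutrophils and in T and NK cells.

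Receptor genes at 2-fold or more were counted in each class. In epithelial cells 2 of 7 receptor genes (Cd44 and Itgav) were 2-fold or more higher in AKT1.MYC, where 16.3% of all genes were. In the same cells 1 gene (Itga4) was higher in NRAS.MYC.ND, against 13.6% of all genes. In duct-like cells none was higher in AKT1.MYC, against 7.34% of genes, and 1 of 7 (Itga9) in NRAS.MYC.ND, against 19.5%. In the hepatocyte lineage 3 of 6 (Cd44, Itgav and Itga9) were higher in AKT1.MYC, against 14.4%, and 1 (Itga4) in NRAS.MYC.ND, against 12.0%. In phagocytes 1 of 7 (Itgb3, at 2.07 CPM in AKT1.MYC and 0.650 CPM in NRAS.MYC.ND) was higher in AKT1.MYC, against 17.1%, and 1 (Itga9) in NRAS.MYC.ND, against 9.61%. In every remaining class Itga4 was the gene that was higher in NRAS.MYC.ND. In neutrophils it stood beside 11.7% of genes, and 2 of 6 receptor genes (Itgb1 and Itgb5) were higher in AKT1.MYC, against 30.7%. In T and NK cells it stood beside 13.7%, and 2 of 7 (Itgb3 and Itgb5) were higher in AKT1.MYC, against 12.9%. In endothelial cells it stood beside 12.5%, and 2 of 7 (Cd44 and Itgb3) were higher in AKT1.MYC, against 9.77%. In erythroid cells it stood beside 21.9%, and 3 of 4 (Cd44, Itgb1 and Itgb5) were higher in AKT1.MYC, against 35.9%. With 4 to 7 genes measured, nothing particular to the receptors is read from these counts. The median log2 ratio of the receptors was -0.35 in epithelial cells and -0.05 in phagocytes, beside 0.19 and 0.09 over all genes.

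Beyond the receptors, other genes of the osteopontin system were read in epithelial cells from lists named by function. None of its 4 relatives in bone and teeth (Ibsp, Dmp1, Mepe and Dspp) reached 10 UMIs. Over all genes of epithelial cells 16.3% were 2-fold or more higher in AKT1.MYC and 13.6% were lower. These shares stand beside every epithelial list count that follows. Of 11 measured other ligands of these integrins, 5 were 2-fold or more higher in AKT1.MYC, and 1 was lower. Those higher included the fibrillin gene Fbn1 (7.66 CPM in AKT1.MYC and 0.413 CPM in NRAS.MYC.ND, log2 ratio 4.21), the matricellular gene Postn (3.52 CPM in AKT1.MYC and 0.413 CPM in NRAS.MYC.ND) and the gene of nephronectin, Npnt (4.52 CPM in AKT1.MYC and 0.827 CPM in NRAS.MYC.ND). All 3 stood below 10 CPM. Fibronectin (Fn1) was lower in AKT1.MYC, 353 CPM against 754 CPM in NRAS.MYC.ND (log2 ratio -1.10, -1.15 to -1.04), and stood at 342 CPM in AKT1.MYC and 601 CPM in NRAS.MYC.ND in duct-like cells alone (log2 ratio -0.81).

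Of 6 measured proteases that cleave osteopontin, 3 were higher in AKT1.MYC epithelial cells, and 2 were lower. Matrilysin (Mmp7), a metalloprotease of ducts and tumours, stood at 284 CPM in AKT1.MYC and 55.8 CPM in NRAS.MYC.ND (log2 ratio 2.35, 2.17 to 2.53). The genes for prothrombin (F2) and plasminogen (Plg), which hepatocytes secrete, were lower, at 25.4 CPM in AKT1.MYC and 520 CPM in NRAS.MYC.ND (log2 ratio -4.36) and 23.7 CPM in AKT1.MYC and 471 CPM in NRAS.MYC.ND (log2 ratio -4.31). Mmp12 and Mmp9, metalloproteases known from macrophages and neutrophils, stood at 16.6 CPM in AKT1.MYC and 3.93 CPM in NRAS.MYC.ND and at 4.29 CPM in AKT1.MYC and 1.65 CPM in NRAS.MYC.ND. Of the 3 enzymes that modify osteopontin, the crosslinking enzyme Tgm2 was higher, 199 CPM in AKT1.MYC and 67.2 CPM in NRAS.MYC.ND (log2 ratio 1.57), and the phosphatase gene Acp5 lower, 32.9 CPM in AKT1.MYC and 71.3 CPM in NRAS.MYC.ND (log2 ratio -1.11). Fam20c, the kinase that phosphorylates secreted proteins, stood at 38.7 CPM in AKT1.MYC and 40.5 CPM in NRAS.MYC.ND. The epithelial class mixes the 2 lineages in unlike shares, and within duct-like cells alone the differences of Mmp7, F2 and Plg were smaller. There Mmp7 stood at 291 CPM in AKT1.MYC and 221 CPM in NRAS.MYC.ND (log2 ratio 0.40, 0.23 to 0.58), F2 at 17.9 CPM in AKT1.MYC and 52.05 CPM in NRAS.MYC.ND (log2 ratio -1.54) and Plg at 19.4 CPM in AKT1.MYC and 52.9 CPM in NRAS.MYC.ND (log2 ratio -1.45).

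Under the receptors, of 17 measured integrin adaptors and kinases 1 was 2-fold or more different in epithelial cells, the kindlin gene Fermt1 (73.0 CPM in AKT1.MYC and 15.7 CPM in NRAS.MYC.ND, log2 ratio 2.22, 1.89 to 2.57). Of the 4 genes that tie CD44 to the cytoskeleton, 3 were higher in AKT1.MYC: Msn (99.3 CPM in AKT1.MYC and 33.1 CPM in NRAS.MYC.ND, log2 ratio 1.59), Nf2 (17.0 CPM in AKT1.MYC and 8.06 CPM in NRAS.MYC.ND) and Ezr (215 CPM in AKT1.MYC and 107 CPM in NRAS.MYC.ND, log2 ratio 1.00, 0.87 to 1.13). In duct-like cells alone none of the 4 linkers passed 2-fold, and Fermt1 stood at 74.4 CPM in AKT1.MYC and 56.2 CPM in NRAS.MYC.ND (log2 ratio 0.41, 0.06 to 0.78). Of 11 measured partner integrin chains, 2 were higher in AKT1.MYC, Itga5 (32.7 CPM in AKT1.MYC and 12.0 CPM in NRAS.MYC.ND) and Itgb6 (15.3 CPM in AKT1.MYC and 5.79 CPM in NRAS.MYC.ND), and 2 were lower, Itga2 (10.4 CPM in AKT1.MYC and 33.7 CPM in NRAS.MYC.ND) and Itga8, with 8 UMIs in AKT1.MYC and 5 UMIs in NRAS.MYC.ND. Of 10 measured CD44 ligands and hyaluronan genes, 2 were higher in each library. Srgn, which encodes the proteoglycan serglycin, stood at 89.2 CPM in AKT1.MYC and 36.8 CPM in NRAS.MYC.ND, and Vcan, which encodes versican, at 3.20 CPM in AKT1.MYC and 10.1 CPM in NRAS.MYC.ND. Has3 (17 UMIs in AKT1.MYC and 1 UMI in NRAS.MYC.ND) and Stab2 (47 UMIs in AKT1.MYC and 37 UMIs in NRAS.MYC.ND) were the others.

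In phagocytes 17.1% of all genes were 2-fold or more higher in AKT1.MYC and 9.61% were lower, the shares beside each phagocyte list count here. Of 9 measured other integrin ligands 7 were higher in AKT1.MYC, and 1 was lower. This was not particular to phagocytes. In T and NK cells 7 of 7 measured were higher, against 12.9% of all genes there. In neutrophils 6 of 6 were, against 30.7%. Mfge8, which bridges dying cells to αv integrins of phagocytes, stood at 148 CPM in AKT1.MYC and 7.96 CPM in NRAS.MYC.ND (log2 ratio 4.22, 3.93 to 4.53). Fn1 went the other way than in epithelial cells, with 458 CPM in AKT1.MYC and 121 CPM in NRAS.MYC.ND (log2 ratio 1.92, 1.84 to 2.01). Vcam1, a ligand of α4β1, was lower in AKT1.MYC, 464 CPM against 1143 CPM in NRAS.MYC.ND (log2 ratio -1.30, -1.34 to -1.26). Of 6 proteases 2 were higher, Mmp7 and Mmp9 (27.1 CPM in AKT1.MYC and 1.14 CPM in NRAS.MYC.ND, log2 ratio 4.57, 3.81 to 5.46), and 2 lower, F2 and Plg. Of 9 CD44 ligands and hyaluronan genes 4 were higher and 1, Stab2, was lower, and of 3 modifying enzymes 1 was higher, Fam20c (36.9 CPM in AKT1.MYC and 15.7 CPM in NRAS.MYC.ND). Of 10 measured partner chains 5 were higher in AKT1.MYC, among them the laminin receptor chain Itga6 (77.8 CPM in AKT1.MYC and 16.01 CPM in NRAS.MYC.ND, log2 ratio 2.28), and 2 were lower, among them Itgb7 (12.97 CPM in AKT1.MYC and 31.7 CPM in NRAS.MYC.ND, log2 ratio -1.29), which can take the place of β1 beside α4. Of 17 adaptors and kinases 6 were higher in AKT1.MYC, and of the 4 CD44 linkers none passed 2-fold. Several of these genes are also made by epithelial cells. All tracers put free epithelial RNA at 12.3% of AKT1.MYC and 3.66% of NRAS.MYC.ND phagocyte UMIs. Without Trf and Hp the expected Spp1 level was lower in both libraries, and so the shares would be lower. Mmp7, for instance, stood at 26.4 CPM in AKT1.MYC phagocytes (344 UMIs) and 0.163 CPM in those of NRAS.MYC.ND (2 UMIs). Its epithelial levels were 284 CPM in AKT1.MYC and 55.8 CPM in NRAS.MYC.ND. At the shares from all tracers, these would bring more Mmp7 into phagocytes than was measured, in both libraries. The source of Mmp7 in phagocytes was not tested.

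Across the 17 points of class by library with at least 50 cells, the genes most like Spp1 were epithelial. Krt8 and Krt18, the keratins of simple epithelia, had Pearson r of 0.988 and 0.984 on log2(CPM + 10), and those that followed included Cldn3, Smim22, Gsta3, Tnfrsf12a, Wfdc2, Me1 and Eps8l2 (0.940). Krt8, Krt18, Cldn3 and Wfdc2 are also tracers, and free RNA spreads all such genes over classes in proportion. Of 7009 genes compared, Itgb3 was most like Angpt2, Mest and Cdh13 (0.974, 0.973 and 0.971), which endothelial cells hold here. Itgb5 was most like Lrp1 (0.944), Tgfbr1 and Igf1, Itga4 most like Ikzf1 (0.922), Tank and A130071D04Rik, and Itga9 most like Plod1 (0.930), Epb41l2 and Cmtm3. Itgb1 was most like Capn2 (0.925), Il3ra and Fkbp1a. Cd44 and Itgav had weaker best matches, Tpd52 (0.897), Msrb1 and Rnf149 for Cd44 and Slc35b2 (0.883), Dynlrb1 and Pygb for Itgav. The points share libraries and depth, and the correlations are a description only.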

How the data were processed

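Tumour cells of 2 mouse groups, 1 library each, were measured by droplet 3′ single-cell RNA sequencing. The values used are raw UMI counts as the authors deposited them, with no normalization. Per the submitters' processing notes they come from Cell Ranger 6.1.2 and the mm10 build, while the header of the matrices gives 6.1.1. No source used here names an annotation release. All 55450 identifiers matched GENCODE vM21 (GRCm38), from which coordinates and the Spp1 stretch were taken.

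Barcodes under 500 UMIs, under 250 genes or over 20% mitochondrial UMIs were removed (456 AKT1.MYC and 351 NRAS.MYC.ND barcodes). Scrublet in Scanpy 1.11.5 marked 0.00970% and 0.168% of cells by its automatic threshold, under the 0.5% taken as failure, so the highest scores up to 0.8% per 1000 barcodes were removed (913 and 327 cells). Joint clusters (Leiden, resolution 1.0, 30 components, no integration) served as an alternative. Classes were gated per cell from 18 marker lists: UMIs above the 40th percentile of the library, at least 4 in excess, at least 2 markers, a score of at least 0.05 of the mean of the 20 highest reference cells, and a second lineage at no more than 0.5 times the first. This scoring rule was chosen after seeing the data.

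UMIs were summed per class and library. CPM have exact Poisson intervals, ratios exact conditional binomial intervals and shares exact Clopper-Pearson intervals, at 95% (SciPy 1.17.1); they cover counting error only, and a count of 0 was given the limit of 3 counts. With 1 library per group no test was made from cells. Ratios needed at least 50 cells of the class in each of the 2 libraries. A gene counted as measured from 10 UMIs over the pair of libraries and as different at 2-fold or more; a fold against 0 was taken against the limit of 3 counts. These steps were checked on simulated data. Of the pathway lists, up to 3 genes per list and direction were named in epithelial cells and phagocytes, with the largest ratios among those at 2-fold or more with an interval excluding 1 and at least 30 UMIs; examples among these are given, and other genes of the lists were named after their values were seen. All 198 marker genes and 79 of 81 list genes matched a symbol. The members, lists and markers were chosen with earlier results of these data known.

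Alternatives covered the mitochondrial limit, depth, doublets, clusters in place of gates, gate strictness, scaling, equal weight per cell, thinning to 1000 UMIs, free RNA subtraction, tracers and UMI minimum. Tracer sets without Trf and Hp, the left-out cluster, the 5 richest cells, shared barcodes and the percentile of the gates were added after seeing the data.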

Additional observations from a re-analysis of the deposited data

How the results depend on the processing

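No paired analysis was possible because each group has 1 library. The log2 ratio of Spp1 in epithelial cells (1.16) was 1.12 at 10% mitochondrial UMIs, 1.14 with clusters in place of gates, 1.12 with 1 more marker per gate, 0.97 with median-of-ratios scaling, 1.54 at equal weight per cell, 1.51 with thinned cells, 1.17 without shared barcodes and 1.27 without the 5 richest cells. In phagocytes (4.82) it was 4.67 with clusters, 4.73 with median-of-ratios scaling, 4.93 with thinned cells, 4.99 without the 5 richest cells and 4.65 without the Arg1, Chil3 and Elane cluster. The excess of Spp1 over free RNA in AKT1.MYC phagocytes (1.81) was 1.30 with clusters, 1.38 at equal weight per cell, 1.38 with thinned cells, 2.17 with duct-like tracers, 2.14 without Trf and Hp and 1.33 without that cluster, and turned to 0.676 with hepatocyte tracers. In NRAS.MYC.ND phagocytes (0.478) it was 0.401 with clusters, 0.433 at equal weight, 0.412 with thinned cells, 0.324 with hepatocyte tracers, 0.917 without Trf and Hp, 0.613 with hepatocyte tracers without them, 0.398 without the 5 richest cells and 0.424 without the cluster, and turned to 1.27 with duct-like tracers. Receptor genes at 2-fold or more numbered 1 in duct-like cells, but 2 at equal weight and 0 thinned. They numbered 4 in the hepatocyte lineage, but 2 with at least 1000 UMIs per cell, with clusters, thinned or at a minimum of 30 UMIs. Phagocytes had 2, but 1 thinned, and erythroid cells 4, but 2 at a minimum of 30 UMIs; the other 90 of 98 such counts were within 1.5 times the main one. Of 612 single-gene ratios 518 moved by less than their counting error and 93 by more. A turn of direction was looked for only where the main ratio was 2-fold or more. There 1 turned: Itga4 in epithelial cells to 0.32 when thinned. Smaller ratios that changed sign are among the 518 and the 93. The cause of the other changes was not tested. The class with the highest level of a receptor was the same in 12 to 14 of 14 cases. Free RNA subtraction gave no value in epithelial cells, which set its scale, or for Spp1 in any other class, where the subtracted level of NRAS.MYC.ND fell below 0. Duct-like cells had no value with clusters, and erythroid cells none with at least 1000 UMIs per cell or thinned. Low UMI counts of AKT1.MYC cells, with 105 T and NK cells and 54 Kupffer cells, limit the receptor values of those classes.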
